A study of Mus musculus with 6 samples.

Results

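*Nfasc*, *Cntn1*, *Cntn2*, *Cadm4*, *Jam3*, *Tspan2*, *Gjb1*, *Gjc3* and *Hapln2* are 9 genes for proteins with which oligodendrocytes hold on to axons and to each other: adhesion molecules of the paranode and internode, a matrix protein of the node of Ranvier, and connexins. They were chosen by name for these roles and not by their measured values. All 9 were among the 55492 genes of the deposited expression table, and all 9 were among the 15245 genes that passed a filter on low values and were tested. RNA came from brain cells of 16-day-old (P16) mice, 3 WT and 3 *Npc1*-/-, none of them treated, with 1 library of poly(A) RNA per mouse. The cells had been taken out of dissociated whole brain with magnetic beads against O4, a surface lipid of late oligodendrocyte progenitors and immature oligodendrocytes. The *Npc1*-/- mice carry the *Npc1* nih allele in every cell of the body and, per the study's methods, were F1 hybrids of *Npc1*+/- parents on BALB/cJ and C57BL6/J backgrounds. The gene encodes a membrane protein that hands cholesterol from the lysosomal compartment on to the rest of the cell, and most patients with Niemann-Pick disease type C carry mutations in it.

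Myelin is sealed to the axon at the paranode, where loops of the oligodendrocyte membrane flank each node of Ranvier. There the glial isoform of neurofascin (from *Nfasc*) binds a complex of contactin (*Cntn1*) and Caspr (*Cntnap1*) on the axon, while a neuronal isoform of the same gene sits at the axonal node. TAG-1 (*Cntn2*) joins glia and axon next to the paranode, *Cadm4* encodes a glial adhesion protein of the internode, and *Jam3* encodes a junctional adhesion molecule found at autotypic contacts of myelin. *Tspan2* encodes a tetraspanin of the myelin membrane. Cx32 (*Gjb1*) and Cx29 (*Gjc3*) are connexins of oligodendrocytes. Cx32 forms gap junctions between layers of one sheath and with astrocytes, whereas Cx29 lies along the inner face of the sheath opposite axonal potassium channels. *Hapln2* encodes Bral1, a link protein that ties hyaluronan to lecticans at the nodes of white matter tracts.

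The stretches upstream of 3 of the genes are shown because *Gjb1* and *Hapln2* had the largest differences between genotypes and *Gjc3*, the other connexin of the 9, did not. They are from RefSeq on GRCm38.p6 and read 5′ to 3′ on the strand of the gene. Each was a window of 250 bases up to the annotated RefSeq start, cut off at the first base inside an annotated exon of the gene. The *Hapln2* stretch kept 178 bases and so ends short of its RefSeq start. Capitals mark matches on either strand to the motifs searched, namely ACAAAG (bound by SOX factors), CAGCTG (an E-box), CTGGCAC (part of the MYRF motif) and TCACNCCAC (a sterol regulatory element). The *Gjb1* stretch, nearest to the most downstream of 4 annotated starts, is chrX:101383482-101383731 on the + strand, the *Hapln2* stretch is chr3:88027584-88027761 on the - strand, and the *Gjc3* stretch is chr5:137963099-137963348 on the - strand.
Gjb1: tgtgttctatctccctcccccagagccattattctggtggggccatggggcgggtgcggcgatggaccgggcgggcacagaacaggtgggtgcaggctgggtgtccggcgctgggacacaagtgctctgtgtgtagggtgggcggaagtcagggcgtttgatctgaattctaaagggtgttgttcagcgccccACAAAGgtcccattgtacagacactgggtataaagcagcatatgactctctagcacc
Hapln2: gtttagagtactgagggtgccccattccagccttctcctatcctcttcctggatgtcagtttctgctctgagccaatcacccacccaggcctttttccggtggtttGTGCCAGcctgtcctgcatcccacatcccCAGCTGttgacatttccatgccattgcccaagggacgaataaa
Gjc3: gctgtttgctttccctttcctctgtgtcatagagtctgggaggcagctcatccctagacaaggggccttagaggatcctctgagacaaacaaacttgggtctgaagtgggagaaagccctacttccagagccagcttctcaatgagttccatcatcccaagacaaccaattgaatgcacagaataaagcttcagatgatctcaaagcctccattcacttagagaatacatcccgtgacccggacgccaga

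The *Gjb1* stretch held 1 match to ACAAAG, as did 1 of the other 3 stretches upstream of *Gjb1* starts. The *Hapln2* stretch held 1 match to CTGGCAC, on the strand opposite to the one shown, and 1 to CAGCTG, and the *Gjc3* stretch held none of the motifs. Among all 32817 promoter windows of the RefSeq table, 16.5% held ACAAAG, 13% held CAGCTG, 4.19% held CTGGCAC and 1.05% held TCACNCCAC. *Nfasc*, *Cntn1*, *Cntn2*, *Cadm4* and *Tspan2* had no match in theirs, but *Tspan2* kept only 9 bases, and the background shares are of untrimmed windows. *Jam3* has no entry in the table. A match describes these letters and is not a measured binding site.

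Levels are given as TPM, the number of transcripts of a gene, corrected for its length, in a fixed total per library, so that genes can be compared with each other as well as between libraries. Each library was divided by its size factor, the median ratio of its genes to their mean over all libraries (1.04 to 1.3 in WT, 0.727 to 1.1 in *Npc1*-/-), and the result is called scaled TPM. *Mbp*, the gene of myelin basic protein, alone took 18.8% to 22.2% of TPM in WT and 20.2% to 26.1% in *Npc1*-/- libraries, and its part in the size factors was not tested. Depth, read from the steps between low values, was 40500000 to 50000000 fragments per library. With each gene taken at the length of its longest coding transcript, that puts about 2500 to 170000 fragments behind each value of the 9 genes. The counting error is then at most 2.0%, and shorter transcripts would mean fewer fragments and a larger error. *Npc1* itself was at 41.1, 45.5 and 43.9 scaled TPM in WT and at 3.72, 5.17 and 4.35 in *Npc1*-/- libraries, so every label matched its genotype. The library of *Npc1*-/- replicate 3 stood apart in sex-linked RNA, with *Xist* at 15.57 TPM and *Ddx3y* at 0, while the others had *Xist* at 0.01 or less and *Ddx3y* at 14.4 to 23.6.

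The marker genes of the labelled cells were present, and so were those of others. Summed markers of myelinating oligodendrocytes (*Mog*, *Mobp*, *Mal*, *Opalin*, *Myrf*) reached 18830 to 31070 scaled TPM in WT and 23920 to 58110 in *Npc1*-/- libraries, nearly all of it *Mobp*, and none of the 5 passed the test. All 5 of these had positive log2 fold changes (median 0.27), but only 1 did on TPM without the size factors. Summed markers of progenitors were at 443 to 609 and 314 to 592, most of it *Gpr17*. Of those 5 markers, 4 had negative log2 fold changes (median -0.22) and 0 passed the test. Of 5 markers of immature oligodendrocytes summing to 1900 to 3068 and 2765 to 5607, *Bcas1* made up the most and was the only positive one, while *Tcf7l2* and *Itpr2* were lower in every mutant library (log2 fold changes -0.45 and -0.38, adjusted p = 0.142 and 0.131, limma). The 8 neuronal markers summed to little, at 85.0 to 121 in WT and 134 to 185 in *Npc1*-/-, but these sums did not overlap, and *Nefl* and *Nefm*, for neurofilament chains, rose (log2 fold change 1.22 and 1.11, adjusted p = 0.0185 and 0.0134, limma). Microglial markers were at 135 to 218 in WT and 57.9 to 110 in *Npc1*-/-, with all 5 lower in every mutant library and *Tmem119* called, and 4 endothelial markers at 418 to 607 and 299 to 356. None of the defining markers of these other cells was at 0. In bulk samples like these, fewer cells of a type and less RNA per cell cannot be told apart.

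Among the 9 genes, the question was which differed between genotypes in the cells that carry O4. *Gjb1* rose in *Npc1*-/- cells and was the only one of the 9 to pass the test (limma on log2 of scaled TPM plus 0.5, adjusted over all genes tested, with an adjusted p below 0.05 and a log2 fold change of at least 0.1 in size). *Hapln2* differed by as much but varied more between mice and did not pass. The other 7 differed by 0.34 or less on the log2 scale in either direction. The call of 1 gene in 9 stands beside 0.813% of all genes tested, of which 0.4% were higher and 0.413% lower in the mutant (61 and 63 genes; on TPM as deposited, without the scaling described above, 54 and 870).

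Every *Npc1*-/- library was above every WT library for 4 of the 9, *Gjb1*, *Hapln2*, *Cadm4* and *Jam3*, and below for 0 of them. Over all genes tested, 13.3% lay above in this way, 14.2% below and 27.5% either way. The log2 fold change was positive for 7 and negative for 2 of the 9, with a median of 0.18, against 0.01 over all genes tested. At an unadjusted p below 0.05 there were 3 of the 9, all higher, against 22.2% of all genes in either direction (1617 higher and 1769 lower of 15245, limma). The sign of the smaller differences rested on the scaling: with TPM as deposited the median of all genes moved to -0.33, and only *Gjb1* and *Hapln2* of the 9 stayed positive, although 7 of the 9 still lay above that median.

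**Figure D1:**
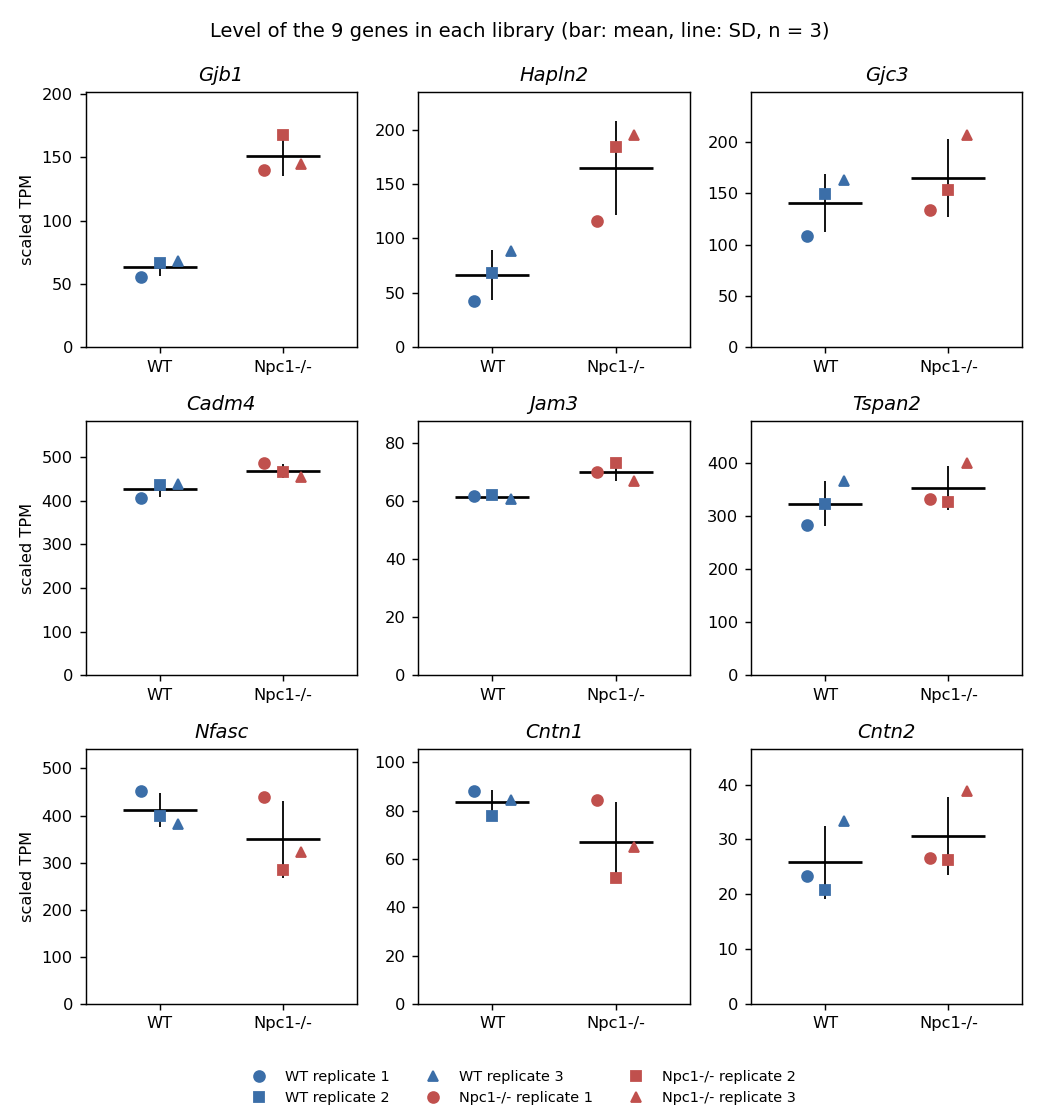
Scaled TPM of each gene in each library (vertical axes start at 0), with the mean and SD of 3 mice per genotype. *Gjb1* was at 55.3 to 68.1 in WT and 139.7 to 168.0 in *Npc1*-/- libraries, *Hapln2* was also higher in every mutant library but more spread, and the remaining genes sat close together or overlapped.

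*Gjb1*, for Cx32, lies at chrX:101376378-101385629 on the + strand (GRCm38, GENCODE M21), with 3 coding transcripts of 1513 to 1585 bases. It was at 55.3, 66.7 and 68.1 scaled TPM in WT replicates 1 to 3 and at 139.7, 168.0 and 144.6 in *Npc1*-/- replicates 1 to 3. Every mutant library was far above the highest WT library, and the spread within each genotype was small. The means were 63.4 ± 7.06 and 151 ± 15.1 (SD, n = 3), a 2.38-fold difference. In the fit the log2 fold change was 1.25 with a standard error of 0.12 (95% interval 0.97 to 1.53) and an adjusted p of 0.0134 (limma), rank 14 of 15245 by p.

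The direction for *Gjb1* held however the values were scaled, and on TPM as deposited, before any scaling here, the groups were still apart at 70.8 to 73.8 and 105.1 to 153.9. With 3 mice against 3, an exact permutation test cannot go below 0.1, which is what *Gjb1* gave (two-sided). The call did not survive leaving out WT replicate 2, WT replicate 3 or *Npc1*-/- replicate 2, when the adjusted p was 0.0737, 0.069 and 0.0854 with log2 fold changes of 1.285, 1.301 and 1.165. *Gjb1* is X-linked and *Npc1*-/- replicate 3 differed from the others in sex-linked RNA. Without that library the log2 fold change of *Gjb1* was 1.27 and the adjusted p 0.0261 (limma). The unadjusted p was 6.43e-05 there, close to the 6.41e-05 without WT replicate 3, where the call was lost (limma). An adjusted p depends on all genes tested, and 488 and 8 genes were called in these fits.

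*Hapln2*, for the nodal link protein Bral1, lies at chr3:88021750-88027583 on the - strand and has 1 coding transcript of 1711 bases. Its levels were 42.9, 67.8 and 88.7 scaled TPM in WT and 115.8, 184.3 and 195.6 in *Npc1*-/- libraries. All 3 mutant libraries exceeded all WT libraries, but replicate 1 was the lowest in each genotype, and the range within either genotype was wider than the gap between them. Means were 66.4 ± 22.9 and 165 ± 43.2 (SD, n = 3), a 2.49-fold difference. The fit gave 1.33 on the log2 scale (standard error 0.30, 95% interval 0.63 to 2.03), a larger value than for *Gjb1*, with an adjusted p of 0.0662 (limma) that did not pass.

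At an adjusted p below 0.1, where *Hapln2* would have passed, 8.95% of all genes tested passed as well. On TPM as deposited its groups were also apart, at 55.5 to 92.1 and 127.6 to 157.6, with an adjusted p of 0.0213 (limma). The lowest *Hapln2* libraries were also the lowest in the myelin gene *Mobp*, which was at 17730, 26620 and 29580 scaled TPM in WT and at 22540, 40980 and 56490 in *Npc1*-/- libraries. Within a library, *Hapln2* over *Mobp*, a ratio chosen after the values were seen, was 0.00242, 0.00255 and 0.00300 in WT and 0.00514, 0.00450 and 0.00346 in *Npc1*-/-. The ratio did not overlap between genotypes (log2 difference 0.70, exact permutation p = 0.1, the smallest possible). The same ratio for *Gjb1* did overlap, through *Npc1*-/- replicate 3, with a similar log2 difference of 0.61 (exact permutation p = 0.2). The part of cell maturity in either result was not tested.

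*Gjc3*, for Cx29, lies at chr5:137953461-137963098 on the - strand and was the more abundant of the connexins among the 9 in WT. It was at 108.4, 149.5 and 162.7 scaled TPM in WT and at 133.4, 153.5 and 207.3 in *Npc1*-/- libraries. The genotypes overlapped, and in each the order of the replicates was that of *Hapln2*. Means were 140 ± 28.4 and 165 ± 38.2 (SD, n = 3). The log2 fold change of 0.23 had a 95% interval from -0.26 to 0.72 (adjusted p = 0.578, limma), and without *Npc1*-/- replicate 3 it was 0.05, without WT replicate 1 0.05 and without *Npc1*-/- replicate 1 0.37.

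Set against each other in the same library, *Gjb1* and *Gjc3* were not in constant proportion. *Gjb1* over *Gjc3* was 0.510, 0.446 and 0.419 in WT and 1.05, 1.09 and 0.698 in *Npc1*-/- libraries, so that Cx32 transcripts were fewer than those of Cx29 in every WT library and about as many in 2 of 3 mutant libraries. The log2 difference was 1.02 and the genotypes did not overlap. A library's scaling cancels in such a ratio. Besides this ratio, 4 others were tested with it: *Hapln2* to *Nfasc*, *Nfasc* to *Cntn1*, *Cntn2* to *Cntn1*, and *Cadm4* to *Nfasc*, the last with overlap and a log2 difference of 0.39 (exact permutation p = 0.2). Over these 5, the smallest exact permutation p of 0.1 became 0.25 after Benjamini-Hochberg adjustment, while ratios chosen after the values were seen were not adjusted.

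**Figure D2:**
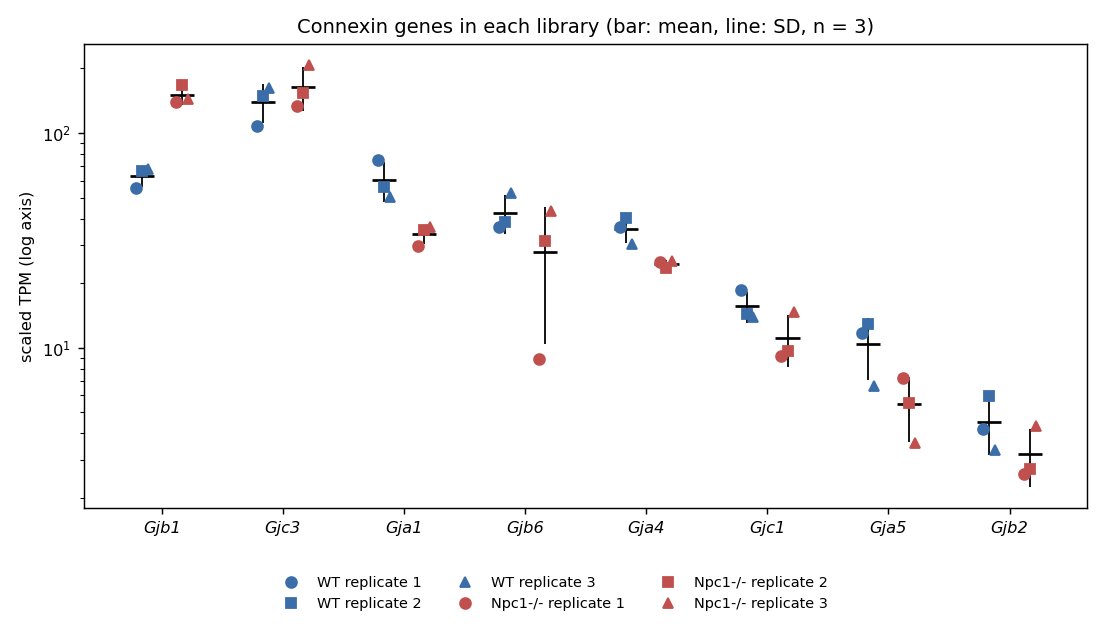
Scaled TPM (log axis) of *Gjb1*, *Gjc3* and 6 connexin genes of other cells, with the mean and SD of 3 mice per genotype. *Gjb1* was higher in every *Npc1*-/- library, *Gja1* and *Gja4* lower in every one, and *Gjb6* lay far below its other libraries in *Npc1*-/- replicate 1, at 8.86.

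Of 6 connexin genes that other brain cells are known for, 0 passed the test. Their median log2 fold change was -0.67, all 6 were negative, and 4 had an unadjusted p below 0.05. So did 22.2% of all genes tested in either direction, with 1769 of 15245 lower. *Gja1*, for the astrocyte connexin Cx43, was at 74.7, 56.4 and 50.4 in WT and at 29.9, 35.3 and 36.4 in *Npc1*-/- libraries (log2 fold change -0.81, adjusted p = 0.0567, limma). *Gjb6*, for Cx30 of astrocytes, overlapped. The 5 astrocyte markers summed to 518 to 557 scaled TPM in WT and 374 to 756 in *Npc1*-/- libraries, and 4 of the 5 had negative log2 fold changes (median -0.23). *Slc1a3*, *Aqp4* and *Aldh1l1* were lower in every mutant library, *Gfap* was higher in every one, and none passed the test. Endothelial markers were lower in every mutant library. Of *Gja4* and *Gja5*, for connexins of vessel walls, *Gja4* was also lower in every one, whereas *Gja5* overlapped between genotypes. Their log2 fold changes were -0.52 and -0.87 (adjusted p = 0.0651 and 0.153, limma), and both were named after their values were seen. The part of these cells in the connexin results was not tested.

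**Figure D3:**
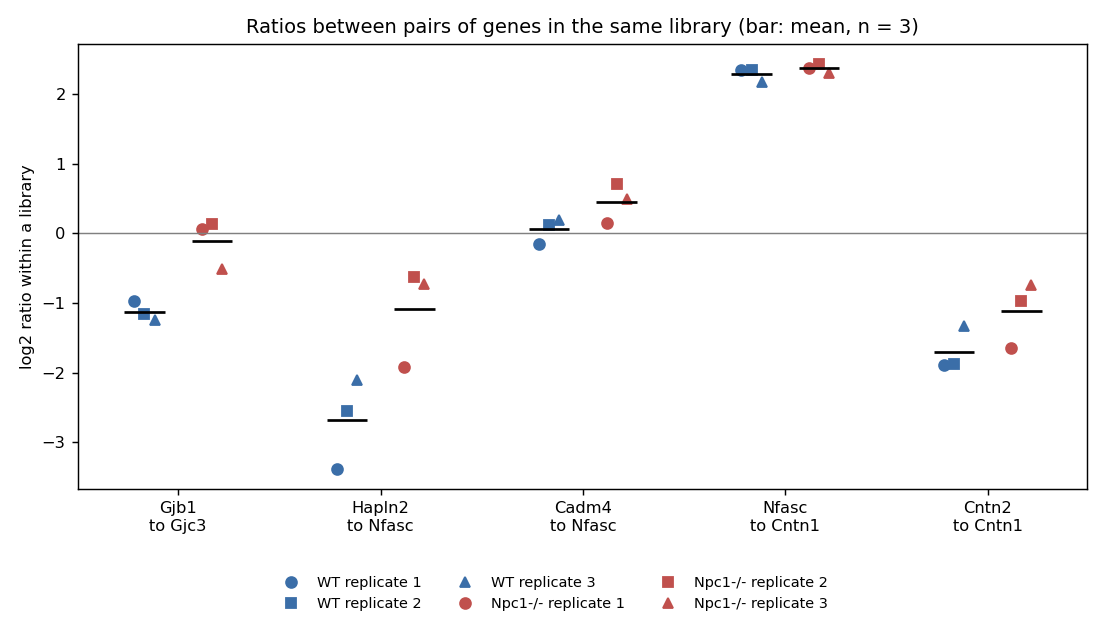
Log2 ratios between pairs of genes within each library, with the mean of 3 mice per genotype (0 is equal scaled TPM). *Gjb1* against *Gjc3* and *Hapln2* against *Nfasc* did not overlap between genotypes, whereas *Nfasc* against *Cntn1* stayed between 2.17 and 2.43 in all libraries.

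*Nfasc* and *Cntn1*, of the core of the paranodal junction, were lower on average but overlapped between genotypes, and their 95% intervals included 0. *Nfasc* (chr1:132564690-132741797, - strand), for the neurofascins, was at 451.2, 399.6 and 382.7 scaled TPM in WT and at 439.9, 284.3 and 323.6 in *Npc1*-/- libraries. *Npc1*-/- replicate 1 lay among the WT libraries, and the other two mutant libraries lay below all of them. On the log2 scale the difference was -0.26 (95% interval -0.66 to 0.15, adjusted p = 0.442, limma), and it was -0.43 without *Npc1*-/- replicate 1 and -0.12 without *Npc1*-/- replicate 2. The gene has 10 annotated transcripts, 6 of them coding and between 3049 and 9739 bases long, and the values do not separate the glial from the neuronal form. The antisense gene *Gm10538* overlaps it, and whether strand was used in counting is not given in the sources used here.

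*Cntn1* (chr15:92051165-92341967, + strand), for contactin, showed the same pattern over libraries. Its levels were 87.9, 77.8 and 84.4 scaled TPM in WT and 84.5, 52.2 and 64.9 in *Npc1*-/- libraries. Here too *Npc1*-/- replicate 1 was at WT level and the remaining mutant libraries were below. The fitted log2 fold change was -0.34 (95% interval -0.73 to 0.06, adjusted p = 0.302, limma), against -0.51 and -0.17 without those same libraries. *Nfasc* over *Cntn1* was 5.13, 5.13 and 4.53 in WT and 5.21, 5.44 and 4.99 in *Npc1*-/-, a log2 difference of 0.08 (exact permutation p = 0.4), the smallest of those 5 ratios. *Cntnap1*, for their axonal partner Caspr, was low at 2.52 to 3.51 in WT and 2.33 to 3.44 in *Npc1*-/- (log2 fold change -0.01, 95% interval -0.43 to 0.40). *Hapln2* over *Nfasc* was 0.0950, 0.170 and 0.232 in WT and 0.263, 0.648 and 0.604 in *Npc1*-/-, with no overlap and a log2 difference of 1.59. Long genes leaned lower here in general: the median log2 fold change ran from 0.148 in the fifth of genes with the shortest transcripts (median 1016 bases) to -0.0923 in the fifth with the longest (6662 bases). With that trend taken out, a step added after seeing the data, *Nfasc* was at -0.12 and *Cntn1* at -0.25.

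*Cntn2* (chr1:132509427-132543256, - strand), for TAG-1, was the least abundant of the 9. It was at 23.4, 20.8 and 33.4 scaled TPM in WT and at 26.7, 26.3 and 38.7 in *Npc1*-/- libraries. Replicate 3 was the highest in both genotypes, and the ranges overlapped. Fitted on the log2 scale, the difference was 0.24 (95% interval -0.26 to 0.75, adjusted p = 0.566, limma). *Cntn2* over *Cntn1* overlapped as well (log2 difference 0.58, exact permutation p = 0.2).

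*Cadm4* and *Jam3*, adhesion genes of the internode and of contacts between myelin membranes, were both higher in every *Npc1*-/- library but by little. *Cadm4* (chr7:24482023-24504539, + strand) was at 406.6, 435.9 and 438.5 scaled TPM in WT and at 486.3, 466.6 and 454.7 in *Npc1*-/-. That is a log2 fold change of 0.14 (95% interval -0.09 to 0.36, adjusted p = 0.465, limma). The gap between the highest WT and the lowest mutant library was narrower than the range within either genotype. *Jam3* (chr9:27097384-27155421, - strand, overlapped by the antisense gene *Gm48796*) was at 61.6, 62.1 and 60.8 in WT and at 69.9, 73.0 and 66.8 in *Npc1*-/-. Its WT libraries were nearly equal, with an SD of 0.657 on a mean of 61.5. On the log2 scale the difference was 0.18 (95% interval 0.00 to 0.36), and the adjusted p was 0.222 (limma). Neither difference was free of the scaling, since on TPM as deposited both genes overlapped and had negative log2 fold changes, -0.24 for *Cadm4* and -0.19 for *Jam3*.

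*Tspan2* (chr3:102734529-102801513, + strand), for the myelin tetraspanin, was at 281.9, 321.7 and 365.2 scaled TPM in WT and at 331, 326.1 and 399.0 in *Npc1*-/-. The genotypes overlapped, and replicate 3 was the highest in each. The log2 fold change was 0.13 (95% interval -0.19 to 0.45, adjusted p = 0.649, limma). *Tspan2os*, *Tshb* and *Gm42681* overlap it on the opposite strand.

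**Figure D4:**
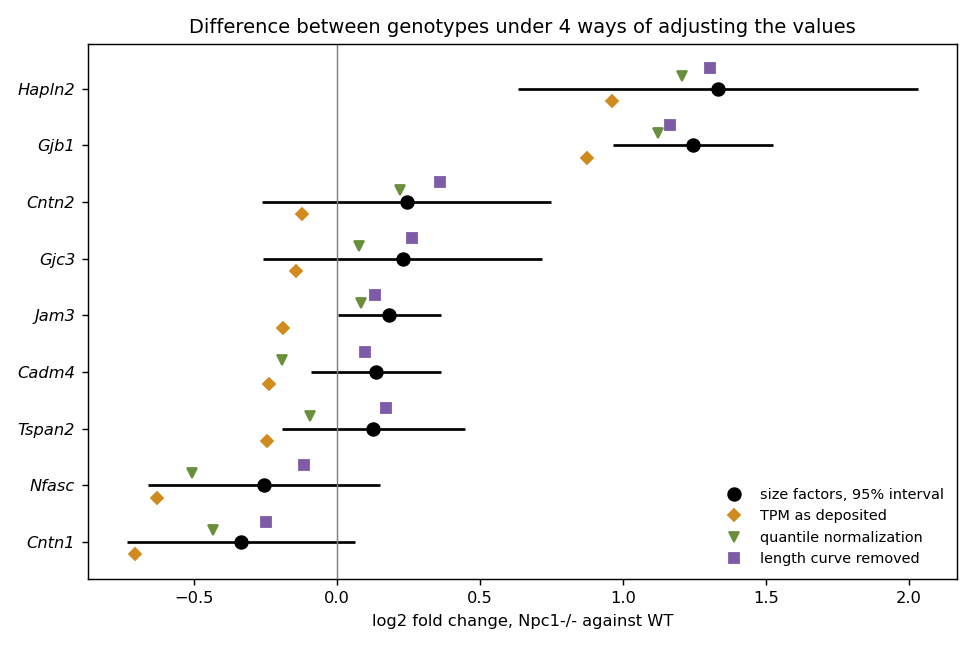
Log2 fold change of each gene (*Npc1*-/- against WT, horizontal axis), with its 95% interval after scaling by size factors, and the same value on TPM as deposited, after quantile normalization and with the trend on transcript length taken out. *Gjb1* and *Hapln2* stayed at 0.87 or above in all 4, while *Cntn2*, *Gjc3*, *Jam3*, *Cadm4* and *Tspan2* were negative on TPM as deposited, as *Cadm4* and *Tspan2* were after quantile normalization.

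The order of levels in WT was *Cadm4* (mean 427 scaled TPM), *Nfasc* (411), *Tspan2* (323), *Gjc3* (140), *Cntn1* (83.4), *Hapln2* (66.4), *Gjb1* (63.4), *Jam3* (61.5) and *Cntn2* (25.9). Neighbours whose WT ranges overlapped were *Cadm4* and *Nfasc*, *Cntn1* and *Hapln2*, *Hapln2* and *Gjb1*, and *Gjb1* and *Jam3*. All 9 were well expressed, from the 80.2nd percentile of the genes tested for *Cntn2* to the 98.9th for *Cadm4*. In *Npc1*-/- libraries *Gjb1* was above *Jam3* in 3 of 3, against 2 of 3 in WT. *Hapln2* was above *Cntn1* in 3 of 3 mutant libraries, whereas *Cntn1* was the higher of the pair in 2 of 3 WT libraries. *Nfasc* was above *Tspan2* in 1 of 3 mutant libraries, against 3 of 3 in WT. Of the RNA of the 9 genes together, *Gjb1* made up 3.64% to 4.16% of TPM in WT and 7.63% to 9.69% in *Npc1*-/- libraries, and *Hapln2* 2.82% to 5.26% and 6.34% to 10.6%. *Nfasc* made up 22.7% to 29.7% and 16.4% to 24.1%.

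The same pathway was followed in 54 related genes: partners on the axon and at the node, other adhesion and polarity genes of glia, connexins of other cells, link proteins with the perinodal matrix, contactins and tetraspanins. Of these, 51 were tested and 0 passed (limma), with 23 at an unadjusted p below 0.05 (22.2% of all genes tested). At an adjusted p below 0.1 there were 6 higher and 8 lower (8.95% of all genes either way). In every mutant library 10 lay above WT and 9 below (13.3% and 14.2% of all genes). *Gldn*, *Gjd2* and *Cntn5* were under the filter. The 13 axonal and nodal genes had a median log2 fold change of 0.13, with the smallest p for *Sptbn4*, for the spectrin of nodes, at 24.9 ± 3.71 in WT and 42.0 ± 8.43 in *Npc1*-/- (SD, n = 3; log2 fold change 0.73, adjusted p = 0.0709). *Ank3*, for ankyrin G, which anchors sodium channels at nodes, was at 168 ± 12.2 and 244 ± 37.6 (0.53, adjusted p = 0.0823) and was named after its values were seen. The sum of the 8 neuronal markers was also higher in every mutant library, although of single markers this held for *Nefl* and *Nefm* only, and their part in these values was not tested.

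The 16 glial adhesion and polarity genes were divided, 7 positive and 9 negative, with a median log2 fold change of -0.10. Every mutant library was above WT for 4 of them, *Mag* (0.42), *Omg* (0.44), *Cldn11* (0.30) and *Ugt8a* (0.25). It was below for 5, *Cadm1*, *Cadm2*, *Jam2*, *F11r* and *Tjp1* (13.3% and 14.2% of all genes tested lay above and below). All but *Cadm1* were named after their values were seen. *Cadm1*, a relative of *Cadm4*, had the smallest p and was at 41.7, 42.2 and 35.0 scaled TPM in WT and at 29.5, 22.5 and 23.1 in *Npc1*-/-. It went the other way from *Cadm4*, by -0.66 on the log2 scale (adjusted p = 0.0589, limma), and its groups were apart. *Hapln1*, the link protein gene with the smallest p among 8 matrix genes (median -0.23), likewise went the other way from *Hapln2*. It was low, at 4.94, 4.58 and 2.83 in WT and 2.43, 1.61 and 1.87 in *Npc1*-/- (-0.88, adjusted p = 0.0818, limma). *Cd63*, for a tetraspanin of late endosomes and lysosomes, was at 78.2 ± 9.68 and 118 ± 7.27 (SD, n = 3; 0.59, adjusted p = 0.0557, limma), whereas the median of 5 other tetraspanin genes, *Cd63* among them, was 0.01. Of the 3 contactins tested (median 0.24), *Cntn3* had the smallest p, with an adjusted p of 0.422 (limma). The lists of these connexins and of matrix genes stayed negative in median under each of 4 other scalings, while the median of the tetraspanins was negative under 3 of them and that of the contactins and of the axonal genes on TPM as deposited.

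**Figure D5:**
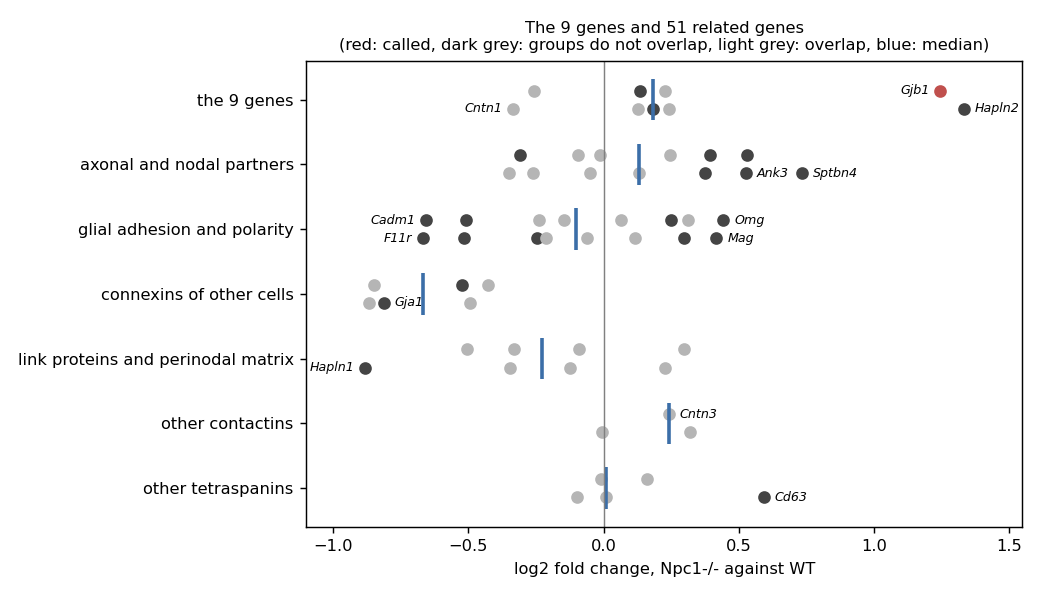
Log2 fold change (*Npc1*-/- against WT, scaled by size factors) of the 9 genes and of 51 related genes by list, where each point is a gene and the blue line the median of the list. *Gjb1* alone was called, *Hapln2* lay beside it, and no related gene reached a log2 fold change of 1 in size.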

How the data were processed

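O4+ cells of 3 WT and 3 *Npc1*-/- mice were measured by poly(A) RNA-seq, with genotype and replicate number taken from the sample labels. The authors deposited TPM and FPKM for 55492 genes in each library, and per the submitters' processing notes cutadapt 2.3, STAR 2.7.8a, RSEM 1.3.3, FastQC 0.11.8 and MultiQC 1.7 were used with GRCm38. The paper's methods name bbduk, STAR, featureCounts and DESeq2 instead, and which of these gave the deposited TPM values is not stated. The deposited FPKM values were TPM times a factor of 0.653 to 0.721 per library, to within 0.119%. Neither unit is a count, so no count test was run. Depth was estimated in single-transcript genes, where FPKM moves in steps of 1 fragment. Of the low values, 80.4% to 84% were whole numbers of fragments within 0.15, where 30% would be by chance.

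TPM was divided by median-of-ratios size factors, 0.5 was added and log2 was taken, so fold changes of low genes are understated. Genes averaging 0.5 TPM or more were fitted with limma 3.58.1 (lmFit, eBayes with trend) in R 4.3.3, with genotype as the only factor. Tests were two-sided and adjusted by Benjamini-Hochberg over all 15245 genes. A gene was called at an adjusted p below 0.05 and a log2 fold change of at least 0.1 in size. In a test on simulated data (15245 genes, 3 against 3), the fit recovered 164 (82%) of 200 genes given a log2 change of 1.5, and called 11 unchanged genes. Single ratios were compared by exact permutation over the 20 arrangements of 3 against 3. The labels give separate mice, and p-values measure the spread between them.

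Positions came from GENCODE M21 (55141 of 55492 identifiers found) and promoters from RefSeq. Tables and plots were made in Python 3.11.15 (scipy 1.17.1, matplotlib 3.10.9). Besides the 9 genes, those named by rule were *Npc1*, *Cntnap1*, any related gene called, the gene with the smallest p in each related list, and genes that overlap one of the 9. Others were named after their values were seen. Some listed genes and the ratios that need them are not reported here, and the lists' counts, medians and sums are without them. The genes, lists and tests were chosen with earlier results of these data known. Alternatives were TPM as deposited, quantile normalization, FPKM, pseudocounts of 0.1 and 1, no filter or one at 5 TPM, limma without trend or with robust estimation, the replicate number as a block, and each library left out in turn. A curve on transcript length (span 0.3) and the ratios to *Mobp* and of *Hapln2* to *Gjb1* (log2 difference 0.09, exact permutation p = 0.7) were added after seeing the data.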

Additional observations from a re-analysis of the deposited data

How the results depend on the processing

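Of 377 values computed under alternatives, 327 kept their direction and their side of the threshold, or moved little. The count of genes called among all tested was 124. It was 924 on TPM as deposited (54 higher, 870 lower), 225 after quantile normalization, 21 of 28469 without the filter, 447 of 9150 with a mean TPM of at least 5, 42 without trend, and 5 (without *Npc1*-/- replicate 2) to 488 (without *Npc1*-/- replicate 3) with a library left out. Of the 9 genes, 1 was called, and 2 were on TPM as deposited and 0 to 1 with a library left out. Related genes called went from 0 to 6 on TPM as deposited, 4 with a mean TPM of at least 5, and 0 to 2 with a library left out (2 without *Npc1*-/- replicate 3). The cause was not tested, except that TPM as deposited moved the median of all genes by -0.33.

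*Gjb1* stayed positive under all 17 alternatives, between 0.874 and 1.301, and lost its call only in 3 of the 6 fits with a library left out. Over all 6 of these fits its log2 fold change was 1.151 to 1.301. *Hapln2* was 0.96 to 1.57 and passed on TPM as deposited (0.96). *Gja1*, *Sptbn4*, *Cadm1*, *Hapln1* and *Cd63* kept their direction under every alternative and passed the threshold under 1 or more of them. TPM as deposited turned *Cntn2* to -0.12, *Cadm4* to -0.24, *Jam3* to -0.19, *Tspan2* to -0.25, *Gjc3* to -0.14 and *Cntn3* to -0.046, and quantile normalization turned *Cadm4* to -0.19 and *Tspan2* to -0.095. With a library left out, *Cntn2* ranged from 0.063 (without *Npc1*-/- replicate 3) to 0.44 (without WT replicate 3) and *Tspan2* from 0.033 (without WT replicate 1 or *Npc1*-/- replicate 3) to 0.22 (without WT replicate 3), and neither passed. *Cntnap1*, at -0.01, became 0.037 after quantile normalization, 0.11 without WT replicate 3, 0.10 without *Npc1*-/- replicate 2 and 0.065 with the length curve removed.

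When the fit held a replicate block, 2011 genes were called (1143 higher, 868 lower), among them 2 of the 9, *Gjb1* and *Hapln2* (log2 fold change 1.33, adjusted p = 0.00893, limma), and 18 related genes (9 higher, 9 lower). Deviations of same-numbered libraries correlated by 0.414, 0.0602 and 0.326 over genes. Each library correlated best with its own number, but for number 2 hardly so: *Npc1*-/- replicate 2 correlated by 0.0548 with WT replicate 3. This is a hint from the data only, and no label ties the numbers to a litter or day.

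Counting error, with each gene at the length of its longest coding transcript, was at most 2.0% for the 9 genes. For *Jam3* it was at most 1.8%, which exceeds the spread of that gene among WT mice. With 3 mice per genotype, single ratios could not go below p = 0.1 by exact permutation.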
